A study of Mus musculus with 25 samples.

Results

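Type I interferon-stimulated genes were examined as a set of 37 genes, chosen by symbol and with earlier results of these data known. All 37 were among the 24132 rows with values in a single table of liver RNA levels. The livers came from 25 C57BL/6 mice after 5 weeks of parabiosis, the surgical joining of a pair of mice so that they share a circulation. Each group held 5 animals, and RNA was extracted with Trizol from flash frozen tissue and made into TruSeq Stranded mRNA libraries. The O (Yg Het) group was 21-month-old WT mice, each joined to a young mouse heterozygous for Manf. The O (YgWT) group was 21-month-old WT mice joined to young WT mice, and the O-O group was 21-month-old WT mice joined to another old mouse. The Yg Het group was the 5-month-old Manf-heterozygous partners (genotype ManfHet), and the Yg WT group the 5-month-old WT partners. All 25 animals had thus undergone parabiosis. A young mouse joined to a young mouse was not analysed here, and the labels do not tie an old mouse to its own young partner. How the Manf allele was made is not given in the sources used here. In the GRCm38 annotation the 37 genes lie on 15 chromosomes, with the Ifit genes on chromosome 19 and the Oas and Oasl genes on chromosome 5. Levels are RPKM, reads per kilobase of gene model and per megaread (1e6 reads) of the library, as the authors deposited them.

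Type I interferons bind a receptor of the subunits Ifnar1 and Ifnar2, whose kinases Jak1 and Tyk2 phosphorylate Stat2 at the receptor. Phosphorylated Stat2 and Irf9 act together in a complex that binds interferon-stimulated response elements in promoters and switches on a large set of antiviral genes. In liver, hepatocytes, resident macrophages (Kupffer cells) and endothelial cells all carry the receptor, and the gene products range from sensors of viral RNA to enzymes that degrade it. Several members also act back on the pathway, Irf7 as an inducer of interferon genes and Usp18 as a brake on receptor signalling.

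The promoter sequences of 6 members are shown because these members held the core of the response element and had the largest differences, among such members, between O (Yg Het) and O-O livers. Each is the 250 bases before the gene's start in the RefSeq promoter table (GRCm38.p6), read 5′ to 3′ on the strand of the gene. Capitals mark matches to GAAA, a pair of bases of any kind and GAAA again, or the same letters read on the opposite strand. In Isg15 and in Oas1a the matches overlap, so one capital run holds more than one match. The windows are chr19:34583279-34583528, plus strand (Ifit3), chr4:156200819-156201068, minus strand (Isg15), chr19:34640639-34640888, plus strand (Ifit1), chr5:120907526-120907775, minus strand (Oas1a), chr12:26456453-26456702, minus strand (Rsad2) and chr7:104465194-104465443, minus strand (Trim30a).
Ifit3: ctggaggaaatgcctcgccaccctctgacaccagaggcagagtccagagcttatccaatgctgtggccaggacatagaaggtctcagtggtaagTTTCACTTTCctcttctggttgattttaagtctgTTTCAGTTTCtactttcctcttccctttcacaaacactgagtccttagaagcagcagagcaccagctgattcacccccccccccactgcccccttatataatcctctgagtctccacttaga
Isg15: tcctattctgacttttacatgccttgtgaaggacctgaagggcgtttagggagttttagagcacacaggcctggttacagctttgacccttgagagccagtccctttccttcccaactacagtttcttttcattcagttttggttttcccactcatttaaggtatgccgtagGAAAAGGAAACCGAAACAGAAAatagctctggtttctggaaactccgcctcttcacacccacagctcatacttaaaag
Ifit1: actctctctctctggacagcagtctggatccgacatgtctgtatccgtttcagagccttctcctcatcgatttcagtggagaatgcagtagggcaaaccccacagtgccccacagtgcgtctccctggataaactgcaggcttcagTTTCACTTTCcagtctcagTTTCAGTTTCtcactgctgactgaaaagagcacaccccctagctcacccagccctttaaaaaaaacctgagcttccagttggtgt
Oas1a: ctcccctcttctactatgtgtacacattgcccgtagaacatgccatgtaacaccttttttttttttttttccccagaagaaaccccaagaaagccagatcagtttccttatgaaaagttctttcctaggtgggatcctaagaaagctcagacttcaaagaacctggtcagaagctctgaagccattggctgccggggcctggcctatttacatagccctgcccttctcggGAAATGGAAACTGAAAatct
Rsad2: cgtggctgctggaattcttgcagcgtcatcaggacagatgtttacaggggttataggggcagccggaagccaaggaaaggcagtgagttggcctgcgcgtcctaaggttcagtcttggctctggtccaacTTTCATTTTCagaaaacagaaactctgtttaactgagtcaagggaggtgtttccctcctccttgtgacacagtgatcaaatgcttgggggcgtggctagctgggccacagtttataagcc
Trim30a: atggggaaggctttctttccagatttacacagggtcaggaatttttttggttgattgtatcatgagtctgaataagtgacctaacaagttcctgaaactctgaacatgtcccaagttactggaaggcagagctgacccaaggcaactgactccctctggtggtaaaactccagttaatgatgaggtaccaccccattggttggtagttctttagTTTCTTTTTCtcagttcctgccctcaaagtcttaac

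Over the full windows of the table, from 250 bases before to 50 after each start, 26 of the 37 members had an entry and 12 of them held at least 1 match on either strand (46.15%). The same letters were found in 3.99% of the 27025 genes of the promoter table. Besides the 6 shown, the members with a match were Ifih1, Bst2, Ddx58, Eif2ak2, Stat2 and Oas3. The palindromic motif of gamma-activated sites, TTCNNNGAA, was in 5 of the 26 members (19.23%) and in 9.55% of all genes of the table. A match is a description of the letters in the window and does not show that a factor binds there.

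Manf, the targeted gene, encodes a secreted protein of the endoplasmic reticulum stress response. It averaged 4.47 ± 1.11 RPKM in Yg Het livers and 15.3 ± 6.47 RPKM in Yg WT livers (SD, n = 5 each), with all 5 Yg Het livers below all 5 Yg WT livers. In the old mice, all WT, it averaged 7.12 ± 1.81 RPKM in O (Yg Het), 17.6 ± 2.46 RPKM in O (YgWT) and 8.86 ± 2.53 RPKM in O-O livers. The library totals were 21.8 to 27.59 M reads (megareads), recovered from the steps between low RPKM values, and member genes on 1 to 11952 reads per library. Within groups, the correlation across genes between any 2 libraries lay between 0.967 and 0.992, and 0 pairs of libraries held identical values. Some libraries stood apart from their group in immune cell markers. The summed level of 12 Kupffer cell markers was 83.7 RPKM in O (Yg Het) 4, the lowest of its group, and 704 RPKM in O-O 4, the highest of its group. The summed level of 8 T and NK cell markers was 12.8 RPKM in O (YgWT) 2, against a median of 1.96 RPKM in its group, and 7.69 RPKM in Yg WT 2, against a median of 1.68 RPKM in its group. Counts of members are also given without O (Yg Het) 4 and O-O 4 together, an alternative chosen after the data were seen. Alb, which encodes albumin, took 8.69 to 18.1% of reads on genes in O (Yg Het), 4.12 to 11.73% in O (YgWT) and 6.71 to 11.22% in O-O livers.

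The 37 members ran from Bst2, Ly6e and Ifi27, with group means between 35.2 and 138 RPKM, down to Samd9l and Oas3, with means of at most 0.258 RPKM in every group. Bst2 encodes tetherin, a membrane protein that holds budding virions at the cell surface, and Ly6e a lipid-anchored surface protein. The mean of O-O livers was the highest of the 5 groups for 32 members and that of O (YgWT) for the other 5 (Dhx58, Stat2, Mx2, Cmpk2 and Parp9). The mean of O (Yg Het) livers was the lowest for 27 members, that of Yg Het for 7 and that of Yg WT for 3 (Irf7, Usp18 and Trim25). All 37 members had a lower mean in O (Yg Het) than in O (YgWT) livers, and a lower mean in O (Yg Het) than in O-O livers. Of all genes tested below, 78% had a negative log2 difference against O (YgWT) livers and 81.6% against O-O livers. Taken as the mean of log2(RPKM + 0.5) over the 37 members, the 5 livers of O (Yg Het) read 1.51, 1.78, 1.63, 1.41 and 1.91. The O (YgWT) livers read 2.09, 2.62, 2.35, 1.99 and 2.16, and the O-O livers 2.41, 2.30, 1.89, 2.75 and 2.76. No O (Yg Het) liver reached the lowest O (YgWT) liver on this mean, whereas the O-O liver numbered 3 lay just under the highest O (Yg Het) liver. The Yg Het livers read 1.62, 1.86, 1.70, 1.94 and 1.87 and the Yg WT livers 1.62, 2.17, 2.04, 1.90 and 1.71, so that both young groups overlapped all or part of the O (Yg Het) range.

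**Figure D1:**
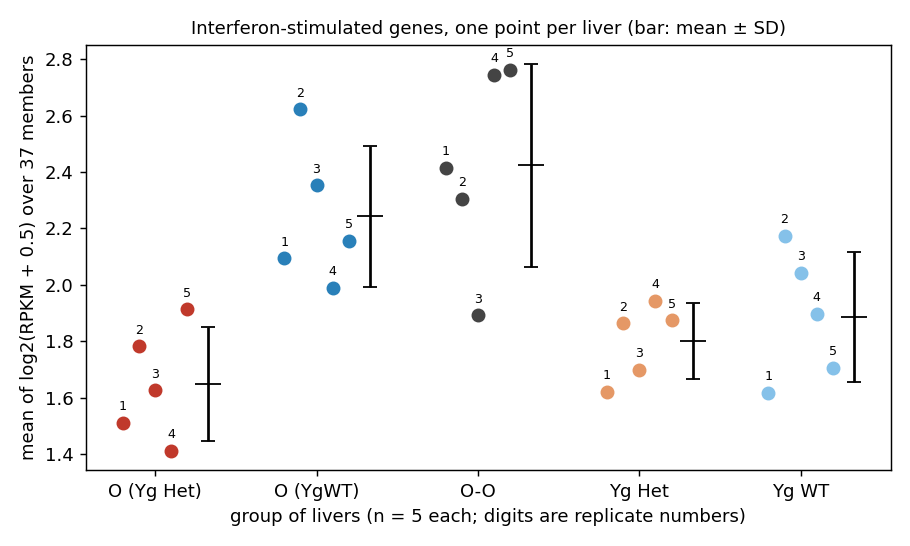
Mean of log2(RPKM + 0.5) over the 37 members (vertical axis) for each of 25 livers in 5 groups (horizontal axis); points are livers with their replicate number and the bar beside them is the mean ± SD over 5 livers. The O (Yg Het) livers sit between 1.41 and 1.91, all below the O (YgWT) livers (1.99 to 2.62), and the O-O livers spread from 1.89 to 2.76.

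Within a group the same livers tended to be high or low over many members. O-O 3 was the lowest of the O-O livers for 34 of 37 members, while O-O 4 and O-O 5 were each the highest for 16. O (YgWT) 2 was the highest of its group for 28 members, O (Yg Het) 5 for 24 and Yg WT 2 for 24. O (Yg Het) 4 was the lowest of its group for 18 members. The median SD of the members on the log2 scale was 0.24 in O (Yg Het), 0.28 in O (YgWT), 0.37 in O-O, 0.19 in Yg Het and 0.24 in Yg WT livers. Over all tested genes the median SD lay between 0.14 and 0.15 in every group. The members rise and fall together from liver to liver, and their separate tests are not independent of each other.

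**Figure D2:**
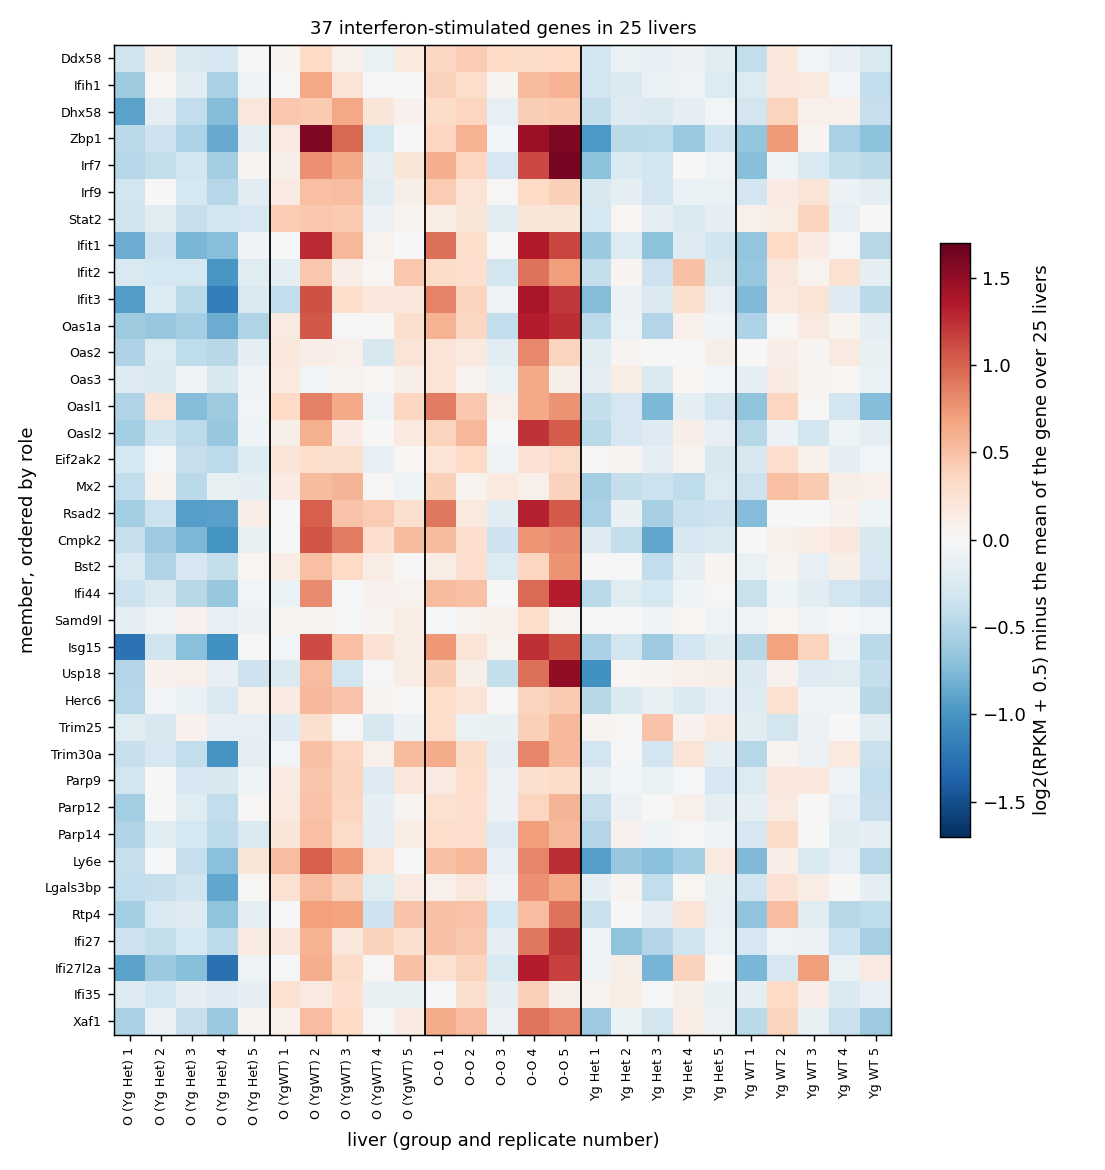
Each row is a member, ordered by role, and each column a liver, with log2(RPKM + 0.5) minus the gene's mean over the 25 livers as colour (red above, blue below). The O-O livers 4 and 5 and the O (YgWT) liver 2 are red over most rows, O-O 3 stands pale among the O-O livers, and the O (Yg Het) livers are blue over most rows, liver 5 the palest of them.

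In O (Yg Het) livers 30 of the 32 tested members fell against O-O livers and none rose, by limma on log2(RPKM + 0.5) with Benjamini-Hochberg adjustment over 9372 genes at a threshold of 0.05. Of all 9372 genes 22.7% were called lower in this comparison and 0.907% higher. The median log2 difference was -0.80 over the tested members and -0.14 over all genes, a gap of -0.66. Usp18 and Trim25, at -0.68 ± 0.26 and -0.34 ± 0.12, were the members not called (adjusted p = 0.0615 and 0.0521). All 5 O (Yg Het) livers lay below all 5 O-O livers for 13 of the 32 tested members, against 12.2% of all tested genes. A member was tested where at least 5 of 25 libraries reached 1 RPKM. Oas2, Oas3, Ifi44, Samd9l and Herc6 did not, and Ifit2 and Oasl2 passed only through their highest group, O-O. Of the 30 members that passed without their highest group, 28 were called lower. Of the 20 members at 1 RPKM or more in every library, 19 were called lower (all but Trim25). A single low library could leave a member out of these 20, as Yg Het 1 did for Usp18 and O (Yg Het) 1 for Dhx58. In bulk tissue, fewer cells of a type and less RNA per cell cannot be told apart.

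Among the 4 sensors, Zbp1, which binds nucleic acids in the Z form and can trigger cell death, differed most. Zbp1 had 1.26, 1.38, 1.16, 0.829 and 1.65 RPKM in O (Yg Het) livers, 2.18, 6.67, 4.22, 1.45 and 1.89 RPKM in O (YgWT) livers and 2.61, 3.13, 1.83, 6.08 and 6.71 RPKM in O-O livers. All O (Yg Het) livers were below all O-O livers, with a log2 difference of -1.26 ± 0.33 (adjusted p = 0.00998). The RNA helicases followed. These were Ifih1 (MDA5), which recognises long double-stranded RNA, Ddx58 (RIG-I), which recognises 5′ triphosphate ends, and Dhx58 (LGP2), which tunes both. They differed by -0.65 ± 0.14, -0.52 ± 0.10 and -0.69 ± 0.17 on the log2 scale (adjusted p = 0.00383, 0.00212 and 0.00825). Ddx58 varied least within O-O livers, at 4.39, 4.69, 4.37, 4.30 and 4.39 RPKM, all above the 2.55, 3.61, 2.71, 2.66 and 3.31 RPKM of O (Yg Het) livers.

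All 3 transcription factors fell. Irf7, the inducer of interferon genes, changed most. Irf7 had 6.70, 7.10, 7.64, 6.16 and 9.85 RPKM in O (Yg Het) livers, 10.3, 16.7, 15.2, 8.51 and 11.1 RPKM in O (YgWT) livers and 14.9, 12.5, 7.77, 21.5 and 30.3 RPKM in O-O livers. The O-O livers 4 and 5 stood highest and O-O 3 lay within the O (Yg Het) range, and the log2 difference was -1.04 ± 0.25 (adjusted p = 0.00541). Irf9 and Stat2, which act together in that complex, were at -0.55 ± 0.12 and -0.42 ± 0.11 (adjusted p = 0.00424 and 0.00928). Both were lower in every O (Yg Het) liver than in any O-O liver. Stat2 was not called after median-of-ratios scaling.

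Of the 9 members grouped as RNA-binding effectors, a group apart from the sensors, 7 were tested and all 7 fell. Their log2 differences ran from -1.36 (Ifit3) to -0.50 (Eif2ak2). Ifit1 and Ifit3 encode partners in a complex that holds foreign mRNA caps away from the ribosome. Ifit3 had 1.98, 3.61, 2.99, 1.66 and 3.52 RPKM in O (Yg Het) livers, 3.12, 9.69, 5.44, 4.96 and 4.94 RPKM in O (YgWT) livers and 8.15, 5.74, 4.02, 12.1 and 10.6 RPKM in O-O livers. Ifit1 had 0.740, 1.24, 0.798, 0.850 and 1.64 RPKM in O (Yg Het) livers, 1.69, 4.88, 2.81, 1.83 and 1.74 RPKM in O (YgWT) livers and 3.79, 2.24, 1.74, 5.17 and 4.39 RPKM in O-O livers. In both genes the 5 O (Yg Het) livers lay below all O-O livers, with log2 differences of -1.36 ± 0.28 and -1.30 ± 0.26 (adjusted p = 0.00298 and 0.00258). The ratio of group means was 0.339 for Ifit3 and 0.304 for Ifit1. Ifit3 has a near-identical copy, Ifit3b, between which reads could be split. Ifit2, which entered the test only through O-O livers, where it is high, was at -0.80 ± 0.22 (adjusted p = 0.0129).

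The oligoadenylate synthetases make a short adenylate chain that activates the nuclease RNase L. Oas1a had 0.813, 0.769, 0.833, 0.609 and 0.901 RPKM in O (Yg Het) livers, 1.70, 3.63, 1.52, 1.52 and 1.89 RPKM in O (YgWT) livers and 2.50, 2.04, 0.986, 4.52 and 4.23 RPKM in O-O livers. Oas1a was at most 0.901 RPKM in every O (Yg Het) liver and differed by -1.26 ± 0.25 (adjusted p = 0.00227) from O-O livers. Oas1a belongs to a cluster of similar mouse genes and its value is uncertain to that extent. Oasl2 had 0.333, 0.489, 0.412, 0.296 and 0.691 RPKM in O (Yg Het) livers, 0.834, 1.39, 0.874, 0.757 and 0.898 RPKM in O (YgWT) livers and 1.12, 1.34, 0.732, 2.41 and 2.05 RPKM in O-O livers. Every O (Yg Het) liver had less Oasl2, an oligoadenylate synthetase-like gene, than any O-O liver, with a log2 difference of -1.05 ± 0.18 (adjusted p = 0.00172). Since Oasl2 entered the test only through O-O livers, where it is high, this difference is partly selected. Oasl1, which in the mouse restrains translation of Irf7, was at -0.90 ± 0.22, and Eif2ak2 (PKR), the kinase that halts translation on double-stranded RNA, at -0.50 ± 0.11 (adjusted p = 0.00569 and 0.00379). Oas2 and Oas3 did not pass the filter.

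Among the other antiviral effectors, Rsad2 (viperin) makes a nucleotide that ends viral RNA chains, and Cmpk2 beside it on chromosome 12 is a nucleotide kinase. Rsad2 had 0.490, 0.653, 0.272, 0.282 and 1.10 RPKM in O (Yg Het) livers, 0.971, 2.49, 1.57, 1.49 and 1.29 RPKM in O (YgWT) livers and 2.26, 1.17, 0.802, 3.19 and 2.55 RPKM in O-O livers. Cmpk2 had 0.663, 0.487, 0.393, 0.255 and 0.889 RPKM in O (Yg Het) livers, 1.03, 2.68, 2.30, 1.36 and 1.72 RPKM in O (YgWT) livers and 1.71, 1.36, 0.697, 2.05 and 2.15 RPKM in O-O livers. Rsad2 differed by -1.19 ± 0.25 (adjusted p = 0.00321) and Cmpk2 by -0.99 ± 0.21 (adjusted p = 0.0034) between O (Yg Het) and O-O livers. In each gene the O-O liver 3 lay below the highest O (Yg Het) liver, so the groups overlapped. Bst2 was at -0.55 ± 0.14 and Mx2, annotated as a polymorphic pseudogene in this reference, at -0.44 ± 0.15 (adjusted p = 0.00912 and 0.0356). Neither was called after scaling.

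Isg15 encodes a ubiquitin-like protein that is attached to other proteins and also secreted. Isg15 had 2.44, 5.03, 3.79, 2.94 and 6.49 RPKM in O (Yg Het) livers, 6.27, 14.6, 9.51, 7.81 and 7.16 RPKM in O (YgWT) livers and 11.2, 7.65, 6.83, 16.1 and 14.4 RPKM in O-O livers. All O (Yg Het) livers were below all O-O livers, with a ratio of group means of 0.368 and a log2 difference of -1.34 ± 0.27 (adjusted p = 0.00256). Usp18, the protease that removes Isg15 and restrains the receptor, did not pass the test. It had 1.49, 2.47, 2.49, 2.06 and 1.71 RPKM in O (Yg Het) livers and 3.28, 2.54, 1.63, 4.88 and 7.49 RPKM in O-O livers. Its O-O values spread over a wider range than in any other group, and the groups overlapped.

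Of the ubiquitin ligases and ADP-ribosyltransferases, Trim30a, a mouse ligase that damps inflammatory signalling, changed most. It had 1.02, 1.14, 0.993, 0.495 and 1.31 RPKM in O (Yg Het) livers against 2.60, 1.99, 1.31, 3.06 and 2.44 RPKM in O-O livers, a log2 difference of -0.89 ± 0.18 (adjusted p = 0.00256). The highest O (Yg Het) liver and the lowest O-O liver were equal after rounding. Parp14, Parp12 and Parp9 were at -0.67 ± 0.15, -0.52 ± 0.14 and -0.37 ± 0.12 (adjusted p = 0.00401, 0.0119 and 0.0317). Parp12 and Parp9 were not called after scaling, and Parp9 shares exon sequence with the antisense gene Dtx3l. Trim25, which ubiquitinates RIG-I, had 9.37, 8.86, 11.4, 9.77 and 9.82 RPKM in O (Yg Het) livers and 13.4, 9.96, 9.84, 14.5 and 16.1 RPKM in O-O livers, and these overlapped.

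The membrane and secreted members all fell. Ly6e was at -0.87 ± 0.24 (adjusted p = 0.013), Rtp4, a chaperone of receptor transport, at -0.80 ± 0.23 (adjusted p = 0.0145) and Lgals3bp, a secreted glycoprotein, at -0.73 ± 0.17 (adjusted p = 0.00472). Ly6e and Rtp4 were not called after scaling. Of the remaining members, Ifi27l2a changed most. Ifi27l2a had 3.23, 3.99, 3.73, 2.4 and 6.04 RPKM in O (Yg Het) livers, 6.41, 10.2, 8.13, 6.57 and 9.32 RPKM in O (YgWT) livers and 7.88, 8.57, 5.35, 17.1 and 15.1 RPKM in O-O livers. The log2 difference was -1.30 ± 0.29 (adjusted p = 0.0038), and the O-O liver 3 lay under the highest O (Yg Het) liver. Ifi27, Xaf1, an antagonist of an apoptosis inhibitor, and Ifi35 were at -0.85 ± 0.18, -0.89 ± 0.19 and -0.33 ± 0.11 (adjusted p = 0.00336, 0.00368 and 0.0363), and Ifi35 was not called after scaling.

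**Figure D3:**
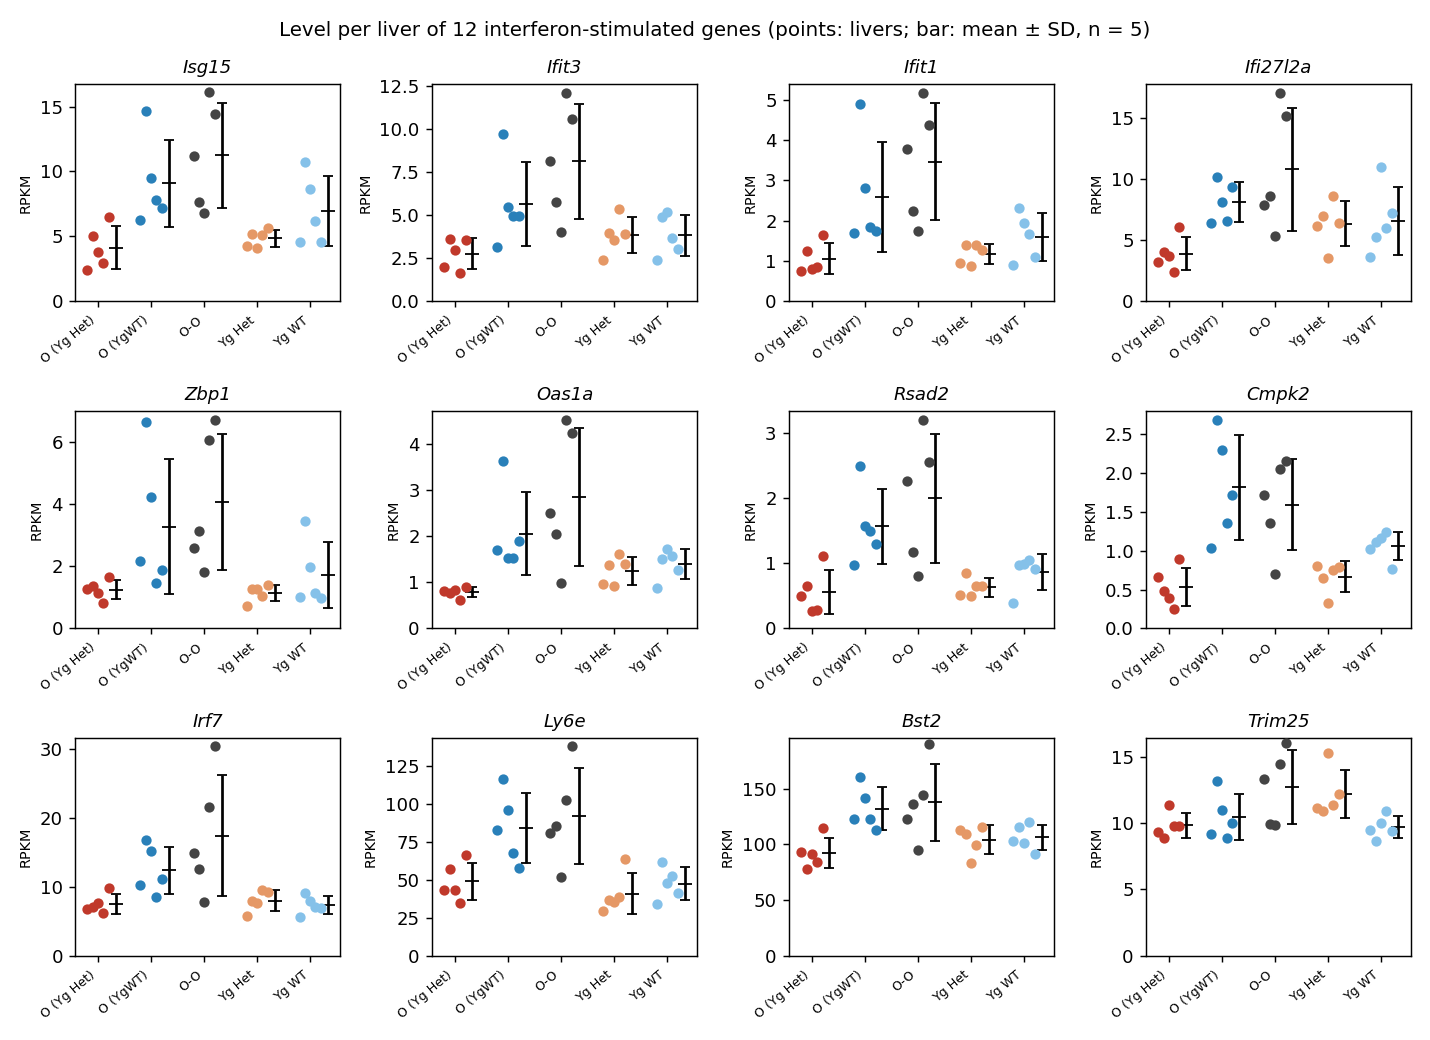
RPKM (vertical axes, from 0) of 12 members in 25 livers of 5 groups (horizontal axes); points are livers and the bar beside them is the mean ± SD over 5 livers. Isg15, Ifit3, Ifit1, Zbp1 and Oas1a show all O (Yg Het) livers below all O-O livers, while Trim25 overlaps in these groups.

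The count depended on how levels were scaled and on which libraries entered. After median-of-ratios scaling, which brought the median difference of all genes to 0.01, 22 of 32 members were called lower, against 6.31% of all tested genes, and the members' median was -0.66. That scaling also changed the split over all genes to 329 higher and 588 lower. Without O-O 4 and O (Yg Het) 4, 12 members were called, against 4.47% of all genes. These were Ddx58, Irf9, Ifit1, Ifit3, Oas1a, Oasl2, Eif2ak2, Rsad2, Cmpk2, Isg15, Trim30a and Ifi27. With no filter on low values 35 of 37 members were called lower, against 18.6% of 17838 genes. All tested members kept a negative difference under each of these settings.

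O (Yg Het) livers were also set against O (YgWT) livers, which shares no O-O library but shares the O (Yg Het) libraries with the comparison above. Of the 32 tested members 30 fell and none rose, against 29.6% of all genes called lower and 3.07% called higher. The median was -0.61 over members and -0.145 over all genes, and Usp18 and Trim25 were again not called. For 11 members the 5 and 5 livers did not overlap, against 13.7% of all genes. Cmpk2 changed most at -1.14 ± 0.21 (adjusted p = 0.000813), with all O (Yg Het) values given above below all O (YgWT) values. Isg15 followed at -1.06 ± 0.27 (adjusted p = 0.00572) and Ifi27l2a at -1.01 ± 0.29 (adjusted p = 0.0115). The O (Yg Het) liver 5, at 6.49 RPKM of Isg15, was just above the O (YgWT) liver 1 at 6.27 RPKM, and Ifi27l2a did not overlap. Rsad2, Zbp1, Oas1a, Ifit1 and Ifit3 were at -0.98 ± 0.25, -0.95 ± 0.33, -0.94 ± 0.25, -0.93 ± 0.26 and -0.88 ± 0.28 (adjusted p = 0.00591, 0.032, 0.00713, 0.0106 and 0.0207).

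Stat2 and Dhx58 had the lowest adjusted p after Cmpk2. Stat2 had 8.63, 9.55, 8.35, 8.85 and 9.0 RPKM in O (Yg Het) livers, against 15.1, 15.4, 15.2, 10.3 and 11.5 RPKM in O (YgWT) livers, with no overlap and a log2 difference of -0.56 ± 0.11 (adjusted p = 0.000993). Dhx58 had 0.937, 1.94, 1.51, 1.12 and 2.58 RPKM in O (Yg Het) livers, against 3.22, 3.16, 3.76, 2.62 and 2.34 RPKM in O (YgWT) livers, with O (Yg Het) 5 above the lowest O (YgWT) liver and a log2 difference of -0.77 ± 0.17 (adjusted p = 0.00291). Median-of-ratios scaling left 12 members called lower, against 9.44% of all genes (838 higher and 880 lower). These were Dhx58, Stat2, Ifit1, Oas1a, Oasl1, Oasl2, Rsad2, Cmpk2, Isg15, Trim30a, Lgals3bp and Ifi27l2a, and the members' median was -0.48. Zbp1 and Ifit3 were not among them. The count also rested on single libraries. It was 17 without O (YgWT) 2, 18 without O (Yg Het) 1, and 18 without O (Yg Het) 4, where 21.7%, 25.5% and 18.7% of all genes were called lower. In all, 17 of the 30 calls held in all 10 omissions. It was 18 without both O-O 4 and O (Yg Het) 4, against 20.6% of all genes, and 19 once reads on Alb were dropped from the library total, against 17.1% of all genes. With no filter on low values it was 26 of 37, against 18.2% of 17838 genes. A fit on the compared groups alone called 27 of 32, against 22.5% of all genes. After scaling 31 of 32 differences were still negative, the exception being 1 of the 2 members not called.

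**Figure D4:**
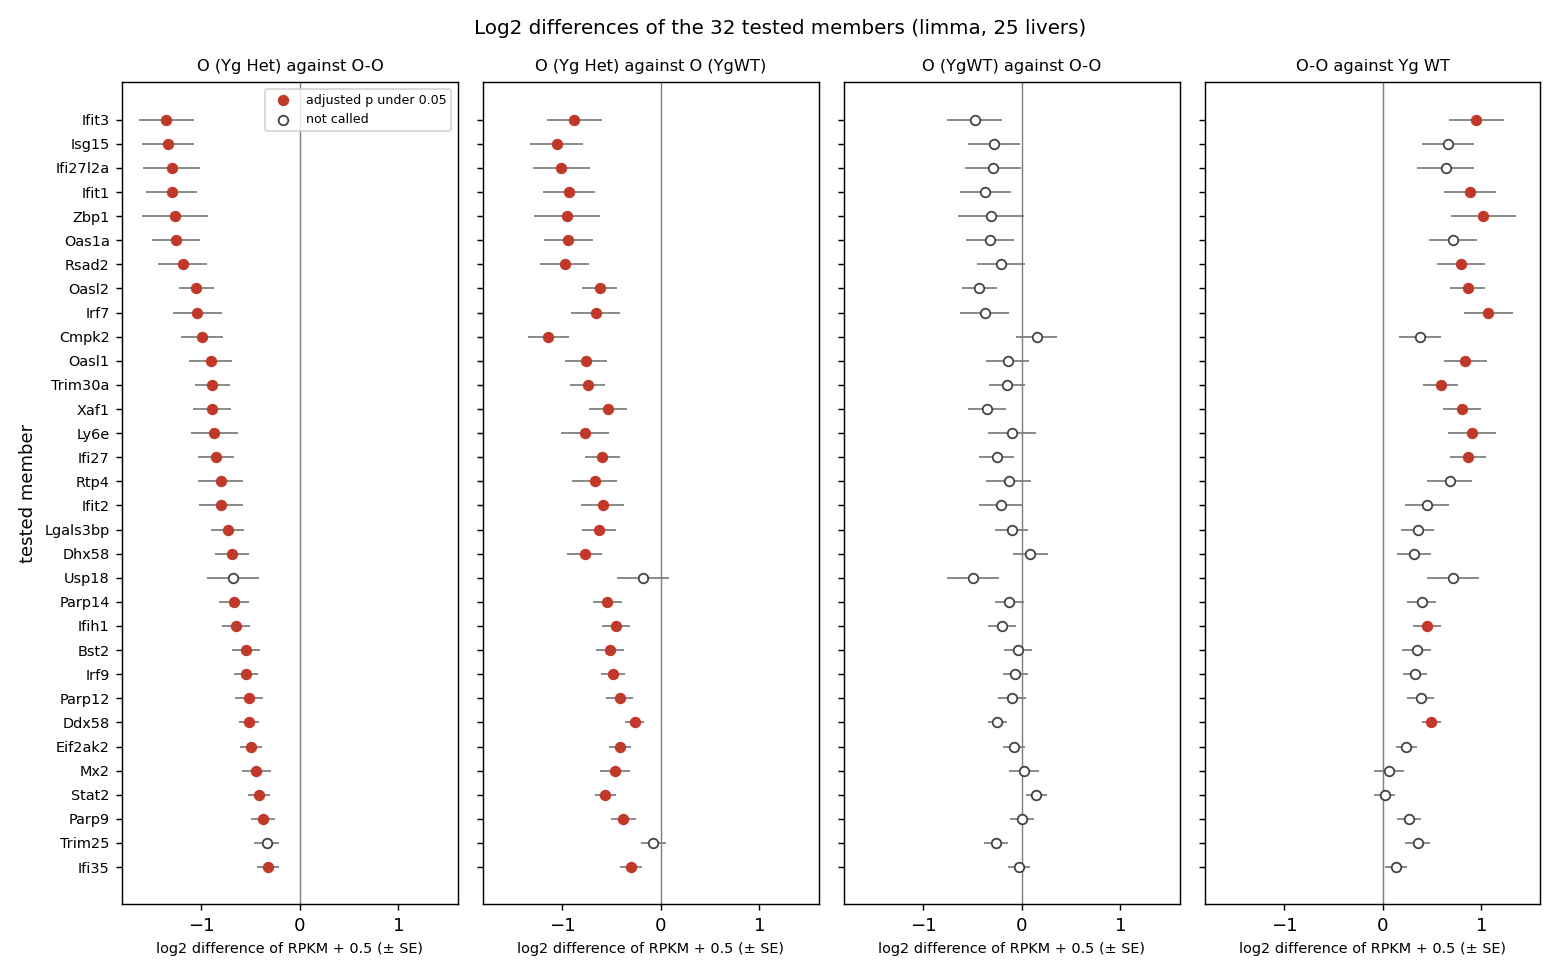
Log2 difference of RPKM + 0.5 with its standard error (horizontal axes) for the 32 tested members (rows, ordered by the first panel) in 4 comparisons; filled points have a limma adjusted p under 0.05. In the first 2 panels 30 members each are filled and negative, in the third none is filled, and in the fourth 13 are filled and positive.

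**Figure D5:**
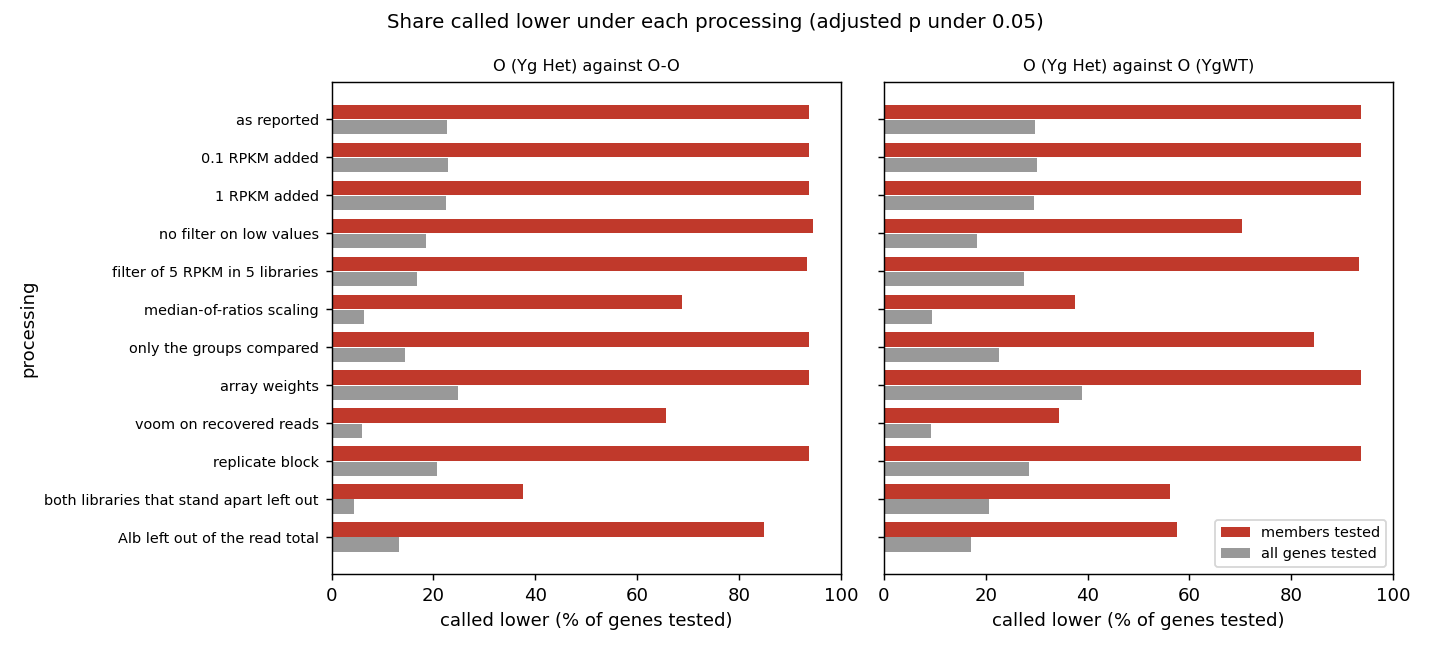
Share of tested genes called lower (horizontal axes, percent) under 12 ways of processing (rows) for the tested members (red) and all tested genes (grey) in 2 comparisons. The members' share lay above that of all genes in every row and both shares fell with scaling, where 22 and 12 of 32 members were called.

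The old livers with young WT partners were set against O-O livers, which carried the same genotype and age and differed by partner. None of the 32 members was called by limma (0.427% of all genes were called lower and 0.747% higher). Of the members 3 had an unadjusted p under 0.05, as had 1496 of all 9372 genes. Voom, which fits the recovered read counts with weights, also called none. The median was -0.17, and 27 of 32 differences were negative, as were 52.1% over all genes. Ddx58 and Oasl2 had the lowest p, at -0.25 ± 0.10 and -0.43 ± 0.18 (adjusted p = 0.197 and 0.219). Ddx58 had 3.49, 4.36, 3.58, 3.07 and 3.82 RPKM in O (YgWT) livers and 4.39, 4.69, 4.37, 4.30 and 4.39 RPKM in O-O livers, with a single O (YgWT) liver inside the O-O range. This comparison shares the O-O libraries with that of O (Yg Het) against O-O livers. The direct difference between O (Yg Het) and O (YgWT) livers is the test given above.

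The young partners themselves were compared for the effect of the Manf genotype in pairs with old WT mice. Of the 32 members 1 was called, and it was lower, against 1.41% of all genes called lower and 3.72% called higher. This was Mx2, with 0.855, 1.04, 1.08, 1.01 and 1.23 RPKM in Yg Het livers and 1.08, 2.41, 2.28, 1.69 and 1.66 RPKM in Yg WT livers, a log2 difference of -0.56 ± 0.15 (adjusted p = 0.032). Yg WT 1 lay within the Yg Het range, and the call was lost in 6 of 10 omissions of a library (0 members without Yg WT 2 or 3 or without Yg Het 1, 2, 3 or 4). Trim25 had the next lowest p and the opposite sign, at 11.2, 10.9, 15.3, 11.4 and 12.2 RPKM in Yg Het livers and 9.53, 8.63, 10.1, 10.9 and 9.40 RPKM in Yg WT livers, and 0.31 ± 0.12 (adjusted p = 0.144), with no overlap (3.17% of all genes did not overlap in this direction). The members' median was -0.04.

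Old livers were also set against the young livers of the same pair type. In WT pairs all 32 members were higher in O (YgWT) than in Yg WT livers, where 22.4% of all genes were lower. The median was 0.36 over members and 0.08 over all genes. No member was called by limma, and 0.117% of all genes were called higher. Of the members 16 had an unadjusted p under 0.05, as had 1187 of all 9372 genes. Voom called none. Ly6e and Ifi27 had the lowest p, at 0.81 ± 0.24 and 0.61 ± 0.18 (adjusted p = 0.183 and 0.183). Ly6e had 83.1, 117, 96.5, 67.8 and 58.1 RPKM in O (YgWT) livers and 33.9, 62.0, 48.2, 52.3 and 41.2 RPKM in Yg WT livers, which overlapped. Ifi27 had 50.1, 67.0, 50.7, 58.2 and 53.5 RPKM in O (YgWT) livers and 36.2, 41.7, 41.2, 34.2 and 29.7 RPKM in Yg WT livers, with no overlap, as in 2 members in all (2.61% of all genes). In heterozygous pairs none of the 32 was called between O (Yg Het) and Yg Het livers, where 4.64% of all genes were called lower and 0.907% higher. The median was -0.16 against -0.13 over all genes, and voom called none. Of the members 3 had an unadjusted p under 0.05, as had 2837 of all 9372 genes. Ifi27l2a had 6.17, 7.0, 3.53, 8.63 and 6.42 RPKM in Yg Het livers, so that its O (Yg Het) livers, given above, overlapped them. Oas1a and Ifi35 did not overlap, all O (Yg Het) livers being lower (5.75% of all genes). Trim25 and Ifi27l2a had the lowest p there, at -0.29 ± 0.12 and -0.65 ± 0.29 (adjusted p = 0.123 and 0.133). The test of the difference between these 2 contrasts called no member by limma or voom, where 1 of 9372 genes (0.0107%) was called lower. An unadjusted p under 0.05 was found for 20 of the 32 members and for 2937 of all genes, and the median was -0.54 over members and -0.21 over all genes. With weights per library it called 13 members lower, and 21.0% of all genes.

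O-O livers were set against Yg WT livers, both joined to an old WT mouse, so that the mouse's own age and the type of pair (old with old, or young with old) differ together and cannot be told apart. Of the 32 members 13 rose in O-O livers and none fell, against 9.11% of all genes called higher and 1.74% lower. All 32 differences were positive, while 30.8% of all genes had a negative difference. The median was 0.54 over members and 0.08 over all genes. The 13 were Ddx58, Ifih1, Zbp1, Irf7, Ifit1, Ifit3, Oasl1, Oasl2, Rsad2, Trim30a, Ly6e, Ifi27 and Xaf1. Irf7 was at 1.07 ± 0.25 (adjusted p = 0.00975) and had 5.61, 9.03, 7.94, 7.08 and 6.84 RPKM in Yg WT livers, against which the O-O liver 3 overlapped. Ddx58 and Oasl2 had the lowest p, 0.49 ± 0.10 (adjusted p = 0.00466) and 0.86 ± 0.18 (adjusted p = 0.00582), and neither overlapped (6.16% of all genes did not). Oasl2 passed the filter only through O-O livers, the group where it is high. Of the 30 members that passed without their highest group 12 were called higher, and of the 20 at 1 RPKM or more in every library 7. Stat2 and Mx2 were the least changed, at 0.02 ± 0.11 and 0.06 ± 0.15. Scaling and voom left 7 of the 13 calls (Ddx58, Irf7, Oasl1, Oasl2, Ly6e, Ifi27 and Xaf1), with 4.05% and 4.04% of all genes called higher. A fit on these 2 groups alone called 3 members and 3.84% of all genes, and a filter of 5 RPKM called 4 of 15 members and 8.88% of all genes. The count was 6 without Yg WT 1, 7 without Yg WT 5, 7 without O-O 1, 20 without O-O 3, 6 without O-O 4 and 6 without O-O 5. Over these omissions 3.46% (without O-O 4) to 10.3% (without Yg WT 5) of all genes were called higher.

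Other genes of the pathway were read in the same livers from 3 lists. Like the members, these lists were chosen with earlier results of these data known. Beside their counts, 22.7% of all tested genes were called lower against O-O and 29.6% against O (YgWT) livers. Of 16 interferon genes and receptor subunits, Ifna1, Ifna2, Ifna4, Ifna5, Ifne, Ifnl2 and Ifnl3 had no read in any of 25 libraries, and Ifnb1 none in 23 of 25. The 5 that passed the filter were receptor subunits, and 2 of them fell in O (Yg Het) against O-O livers. These were Il10rb, a subunit of the interleukin-10 and type III interferon receptors, at -0.57 ± 0.13, and Ifngr1, of the interferon-gamma receptor, at -0.56 ± 0.13 (adjusted p = 0.00434 and 0.00561). Ifnar1 and Ifnar2 were at -0.26 ± 0.10 and -0.21 ± 0.08 (adjusted p = 0.0543 and 0.0564). None of the 5 was called between O (Yg Het) and O (YgWT) livers. Of 15 tested genes of signalling upstream of the members, 9 fell against O-O and 9 against O (YgWT) livers. Against O-O livers Jak1 was at -0.38 ± 0.06, Ikbke, a kinase of Irf3 and Irf7, at -0.65 ± 0.14, Irf8, a transcription factor of macrophages and dendritic cells, at -0.82 ± 0.19 and Tmem173 (STING), the adaptor of cytosolic DNA sensing, at -1.0 ± 0.23 (adjusted p = 0.00172, 0.00374, 0.00475 and 0.00477). Of 40 tested interferon-stimulated genes outside the set, 39 fell against O-O and 30 against O (YgWT) livers, with medians of -0.68 and -0.52. Ifi203 and Ifi204, of the Ifi200 family of DNA-binding proteins, Slfn5, a schlafen gene, and Rnf213, a ubiquitin ligase, had the lowest p against O-O livers, at -0.94 ± 0.14, -1.13 ± 0.18, -1.10 ± 0.18 and -0.72 ± 0.12 (adjusted p = 0.00147, 0.00172, 0.00172 and 0.00172).

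Markers of several liver cell types were also called lower in O (Yg Het) than in O-O or O (YgWT) livers. For their counts too, the shares of all tested genes called lower were 22.7% against O-O and 29.6% against O (YgWT) livers. Of 12 Kupffer cell markers 9 fell in O (Yg Het) against O-O livers and 10 against O (YgWT) livers. Their summed level ranged from 83.7 to 239.8 RPKM in O (Yg Het), 265 to 458 RPKM in O (YgWT) and 269 to 704 RPKM in O-O livers, and none of the 12 was at 0. Of 8 sinusoidal endothelial markers 6 fell against O-O and 7 against O (YgWT) livers, with summed levels of 24.0 to 55.9, 57.8 to 75.1 and 65.8 to 69.4 RPKM in O (Yg Het), O (YgWT) and O-O livers. Of 7 tested stellate cell and fibroblast markers 6 and 5 fell, both tested monocyte markers fell in each comparison, and all 3 tested neutrophil markers did so. The 6 plasmacytoid dendritic cell markers, cells known for making interferon, summed to 1.04 to 2.50 RPKM in O (Yg Het), 1.79 to 11.1 RPKM in O (YgWT) and 2.02 to 11.9 RPKM in O-O livers, with medians of 1.33, 2.99 and 2.68 RPKM. The high ends rest on single genes, Cox6a2, listed at 0 in 14 libraries and at 9.50 RPKM in another, and Ly6d, at up to 9.99 RPKM. Siglech, a defining marker of these cells, was at most 0.506 RPKM in any library, and the 1 marker that was tested was not called. The 8 T and NK cell markers summed to 0.765 to 1.80, 1.29 to 12.8 and 1.68 to 11.9 RPKM in the same groups, with medians of 0.851, 1.96 and 2.65 RPKM. The 5 B cell markers summed to 0.903 to 3.45, 2.78 to 5.09 and 4.78 to 27.0 RPKM. The 1 tested T and NK cell marker and the 2 tested B cell markers were called lower against O-O livers. None of these was called against O (YgWT) livers. No hepatocyte marker of 10 fell, and 3 rose against O (YgWT) livers, where 3.07% of all genes were called higher. In O-O against Yg WT livers 13 of 32 members were called higher, and 9.11% of all genes. None of the tested Kupffer cell, sinusoidal endothelial, neutrophil, T and NK cell, plasmacytoid dendritic cell or hepatocyte markers was called there. The stellate cell and fibroblast markers were called higher in 4 of 7, the monocyte markers in 1 of 2 and the B cell markers in 2 of 2. The 37 members together summed to 240.6 to 358 RPKM in O (Yg Het), 377 to 564 RPKM in O (YgWT) and 314 to 679 RPKM in O-O livers. Dropping Alb reads from the library totals left 28 of 33 members called lower against O-O livers, with a median of -0.75 and 13.3% of all genes. Against O (YgWT) livers it left 19 of 33, with a median of -0.55 and 17.1% of all genes. The part of these cell types in the lower member levels was not tested. Nor was that of the larger Alb share in O (Yg Het) livers, beyond this change of totals.

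Members with and without the promoter letters shown at the start were compared by count. In O (Yg Het) against O-O livers, where 22.7% of all tested genes were called lower, all 11 tested members with a match were called lower. Their median was -0.89 and their range from -1.36 to -0.42. Of the 11 tested members without one, 10 were called lower, with a median of -0.80 and a range from -1.05 to -0.33. Of the 10 tested members outside the promoter table, 9 were called lower, with a median of -0.74. The ranges of members with and without the letters overlapped. Irf7 and Oasl2 had no match in the window and differed by more than Stat2, Eif2ak2 and Ddx58, which had one. Oasl2 and Ifit2, also without a match, entered the test only through O-O livers, where they are high.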

How the data were processed

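Liver RNA levels of 25 mice were read from a single table of RPKM deposited by the authors. Per the submitters' processing notes, reads were processed with STAR 2.4.2a and HTSeq on mm10. How strand and multiply matching reads were handled is not given in the sources used here, so values of near-identical genes (Ifit3, Oas1a, Trim30a, Ifi27l2a) and of the 11 members whose exons overlap another gene in GENCODE M21 are uncertain. Of 60354 rows, 24132 held values, of which 6269 were 0 throughout. Plin2, listed as infinite, and 24 rows with a number for a name were left out. Whole reads were recovered for all 17838 genes with a value above 0 (100.0%, tolerance 0.02 reads), which gave the depth. The 9372 genes that reached 1 RPKM in 5 or more libraries were fitted as log2(RPKM + 0.5). The model held the 5 group means, with an intensity trend (limma 3.58.1, R 4.3.3) and 20 residual degrees of freedom. Differences on this scale understate changes of low genes. Benjamini-Hochberg adjustment ran over all tested genes, with a threshold of 0.05, in 7 comparisons and a test of the difference between 2 of them. Members were named by role. All livers are given for the members with the largest differences and lowest p, and for the promoters those with a match and the largest differences were chosen. The members, lists and rules were chosen with earlier results of these data known. A gene of the signalling list is not reported here. Each library was left out in turn. Other alternatives were constants of 0.1 and 1 RPKM, no filter or 5 RPKM, a replicate block, library weights, fits on the compared groups alone, median-of-ratios scaling and voom on the recovered reads. Leaving out O-O 4 with O (Yg Het) 4, and dropping Alb reads from the library totals, were chosen after the data were seen. Promoter matches were counted in pandas 2.3.3 (Python 3.11.15), and matplotlib 3.10.9 drew the figures.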

Additional observations from a re-analysis of the deposited data

Results flagged for a closer look

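A liver was set aside for a closer look where its gap to the nearest of the other 4 livers, as a share of the range of its group, passed the 95% limit of Dixon's test. This was run on all 37 members in 5 groups. It marked 12 of 185 sets of 5 livers. Chance marks about 1 in 20, or 9.25 of 185, and members of the same liver are not independent. The liver O-O 3 was low for Dhx58 at 1.96 RPKM (the other 4 livers 2.84 to 3.19 RPKM), Stat2 at 9.74 RPKM (the other 4 livers 12.1 to 12.8 RPKM) and Eif2ak2 at 2.78 RPKM (the other 4 livers 3.54 to 3.84 RPKM). The liver O (YgWT) 2 was high for Oas1a at 3.63 RPKM (the other 4 livers 1.52 to 1.89 RPKM), Oasl2 at 1.39 RPKM (the other 4 livers 0.757 to 0.898 RPKM) and Ifi44 at 1.09 RPKM (the other 4 livers 0.343 to 0.454 RPKM). In O (Yg Het) livers, Ifit2 at 0.132 RPKM (the other 4 livers 0.520 to 0.596 RPKM) was low in liver 4, and Ifi27 at 49.3 RPKM (the other 4 livers 32.4 to 35.8 RPKM) was high in liver 5. In Yg Het livers, Usp18 at 0.886 RPKM (the other 4 livers 2.38 to 2.52 RPKM) was low in liver 1, and Ly6e at 64.1 RPKM (the other 4 livers 29.7 to 38.6 RPKM) was high in liver 5. In Yg WT 1 the low value was Rsad2 at 0.393 RPKM (the other 4 livers 0.916 to 1.06 RPKM). In O-O 2 the high value was Ddx58 at 4.69 RPKM (the other 4 livers 4.30 to 4.39 RPKM).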

How the results depend on the processing

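No difference of a called member changed sign under any alternative run. Counts of members called, in a single direction per comparison, are given here where they moved by over 1.5 times. In O (Yg Het) against O-O livers the count of 30 became 14 of 15 with a filter of 5 RPKM and 12 without O-O 4 and O (Yg Het) 4. Leaving out each library gave 26 to 31. The share of all genes called lower was 22.7% as reported, 16.7% with that filter and 4.47% without both libraries. Over the omissions it was 12.4 to 28.6%. Of the 30 calls, 26 held in all 10 omissions and 21 under both scaling and voom. In O (Yg Het) against O (YgWT) livers the count of 30 became 14 of 15 with a filter of 5 RPKM, 12 after median-of-ratios scaling and 11 with voom. It became 18 without both libraries and 19 once reads on Alb were dropped from the library total, and omissions gave 17 to 30. Shares of all genes called lower were 29.6% as reported and 27.5%, 9.44%, 9.25%, 20.6% and 17.1% in that order. Over the omissions they were 18.7 to 33.8%. In O-O against Yg WT livers the count of 13 became 4 with a filter of 5 RPKM, 7 after scaling and 7 with voom. It became 3 with only the groups compared and 6 without both libraries, and omissions gave 6 to 20. Shares of all genes called higher were 9.11% as reported and 8.88%, 4.05%, 4.04%, 3.84% and 3.73% in that order. Over the omissions they were 3.46 to 12.1%. In Yg Het against Yg WT livers the count of 1 became 0 with no filter, with a filter of 5 RPKM and with only the groups compared. Omissions gave 0 to 1. Shares of all genes called lower were 1.41% as reported and 0.426%, 2.37% and 0.843% in that order. Over the omissions they were 0.501 to 1.85%. The test of the difference between pair types gave 13 with weights per library in place of 0, where the share of all genes called lower was 21.0% in place of 0.0107%. Omissions gave 0 to 2. The 2 came without O (YgWT) 4 or O (Yg Het) 5, where 12.7% and 6.95% of all genes were called lower. The causes were not tested, apart from the filter of 5 RPKM, which left 15 members to test. The other 3 comparisons gave 0 under every alternative and every omission. The deviations of same-numbered livers from their group means correlated at -0.527 to 0.275 over 35 pairs of the 7 comparisons, with 11 above 0.1 and 9 livers best with their own number. In O (YgWT) against Yg WT livers the 5 correlations ran from 0.077 to 0.275, with 4 above 0.1 and 3 best with their own number, a hint from the data and not from the design. In no comparison did all 5 pairs pass 0.1, and the labels tie no numbers together, so the animals were not treated as paired. With the replicate block the counts were 30 and 30 in the first 2 comparisons, 14 in O-O against Yg WT livers, 1 between the young groups and 0 elsewhere. Of all genes it called 20.8% and 28.5% lower in the first 2, 8.06% higher in O-O against Yg WT livers and 1.26% lower between the young groups. Samd9l rested on 1 to 25 reads per library and Oas3 on 8 to 89, so depth limits the precision of their differences.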
